A study of Mus musculus with 3 samples.

Results

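Choroid plexus cells that carry little RNA of cilia genes were examined in single-cell libraries of the mouse dorsal telencephalic midline, with and without the multiciliation coregulator Gmnc. A cell was a member when it had at least 1000 genes, 2000 UMIs (unique molecular identifiers, the counted RNA molecules) and at most 10% mitochondrial UMIs, held at least 20 UMIs of Ttr per 10000, and held at most 7 UMIs of Foxj1, Deup1 and Dynlrb2 together. Members were thus selected on measured UMIs of Ttr and of 3 cilia genes. The rule found 3505 members among the 33001 cells that passed the cell filters: 680 of 9468 in wild-type library 1, 588 of 8158 in wild-type library 2 and 2237 of 15375 in the knockout library. Values given below in 3s follow that order of libraries. All embryos were C57BL/6J, and both hemispheres' dorsal pallial midline was dissected, dissociated and run on 10x 3′ v3 chemistry. The wild-type libraries were drawn from 1 suspension that pooled 4 PGKCre;Rosa26YFP embryos at E11.5 with 4 Wnt3aCre;Rosa26tdTomato embryos at E12.5. The knockout library came from 4 pooled Gmnc-/- embryos at E12.5, for which no Cre or reporter is named. PGKCre acts in nearly all cells, whereas Wnt3aCre marks cells of the cortical hem and their descendants. With 1 suspension a genotype there was no biological replicate, so no test was run, the wild-type libraries were counted as repeats of 1 sample, and bracketed 95% intervals cover counting error only. Stage, transgenes, software version and genotype cannot be told apart in the full comparison.

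The choroid plexus is the epithelium that secretes cerebrospinal fluid. It forms from the roof of the neural tube next to the cortical hem under Bmp and Wnt signals, and its cells build tufts of motile cilia while they acquire ion pumps, bicarbonate and potassium transporters, and carrier proteins such as transthyretin (Ttr). Gmnc, a Geminin-related nuclear protein, acts at the head of the multiciliation program: with its relative Mcidas and E2f factors it switches on Ccno, Deup1 and Foxj1, which lead to centriole amplification and to the genes of the motile axoneme. The members are cells with Ttr and few UMIs of 3 genes of that program, Foxj1, Deup1 and the dynein light chain Dynlrb2.

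Members were deeply sampled in all libraries, with a median of 11198, 12552 and 9797 UMIs and 3697, 3924 and 3337 genes a cell. They were split by Ttr into a low range (20 to 100 UMIs per 10000), a middle range (100 to 300) and a high range (over 300), holding 298, 265 and 117 members in wild-type library 1, 251, 236 and 101 in wild-type library 2 and 852, 526 and 859 in the knockout. The median Ttr was near-equal between libraries in the low range (47.9, 49.4 and 44.6 per 10000) and the middle range (169, 167 and 180), but the high range reached further in the knockout (399, 390 and 599). Just under the Ttr border, between 15 and 20 per 10000, lay 40, 27 and 158 cells, and just above it, between 20 and 25, lay 45, 30 and 114. At the cilia border, 6, 7, 8 and 9 UMIs were held by 22, 13, 17 and 26 Ttr cells in wild-type library 1, by 14, 21, 17 and 16 in wild-type library 2 and by 21, 15, 11 and 7 in the knockout. No UMI of the 3 cilia genes was found in 275, 238 and 1209 members (40.4%, 40.5% and 54.0%).

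Several features of the knockout library moved with the comparison. Erythroid cells, which do not make Ttr, held more of its UMIs there: they had a median of 0, 0 and 0.497 Ttr UMIs per 10000 and a 95th percentile of 0.829, 0.989 and 28.7. The member rule was met by 18 of 289 erythroid cells of the knockout and by 0 of 217 and 0 of 191 of the wild type. A doublet score marked 52, 39 and 471 members (7.65%, 6.63% and 21.1%), and in the knockout 26.5%, 30.8% and 9.66% of members in the low, middle and high ranges. The share of all cells it marked (9.94%, 8.32% and 16.2%) was set in advance by each library's number of barcodes. At least 2 of the markers Clic6, Trpm3, Htr2c, Sulf1 and Car14 were detected in 97.8%, 98.8% and 90.5% of members, with 77.0% in the low range of the knockout and 99.5% in its high range. Mitochondrial UMIs made up 5.02%, 5.07% and 3.28% of the members' total. The parts of doublets and of free RNA in the differences below were not tested. The wild-type libraries shared 1914 cell barcodes (18.4% of the smaller library), in which the smaller total had a median of 2.33% of the larger, and 52, 95 and 10 members had a barcode found in another library. Gene levels of the wild-type libraries differed by a median of 0.09, 0.09 and 0.16 (log2) in the 3 ranges, with a 99th percentile of 0.46, 0.48 and 0.86. In the high range 27 of 6253 genes were at least 2-fold apart between these repeats, with counting intervals that did not overlap. In the low and middle ranges 1 of 6349 and 0 of 6355 were.

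Nearly every Ttr-positive cell of the knockout was low in cilia genes. Members made up 63.1% [60.2 to 66], 60.6% [57.5 to 63.7] and 98.0% [97.4 to 98.6] of the 1077, 970 and 2282 Ttr cells. In the wild type this share was 80.5% and 83.1% in the low range, 62.5% and 58.4% in the middle range and 41.3% and 38.3% in the high range, and in the knockout it was 100% [99.6 to 100], 99.1% and 95.6%. The wild-type shares thus differed from low to high Ttr far more than those of the knockout. Only 45 Ttr cells of the knockout were over the limit, against 397 and 382 in the wild type. With every cell thinned to 4000 UMIs the shares were 85.0%, 82.6% and 100%. These shares restate the selection rule and are a description.

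**Figure D1:**
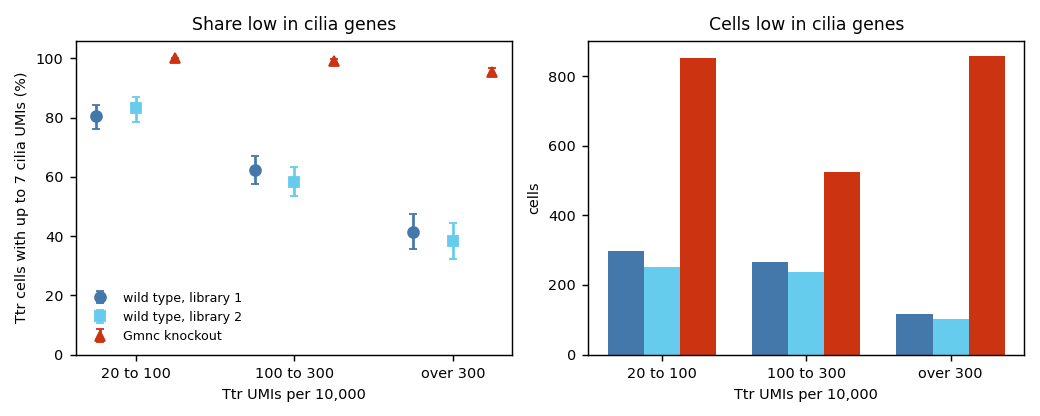
Percent of Ttr-positive cells low in cilia genes, by Ttr range and library with 95% Clopper-Pearson intervals, and the number of members in each. Shares in the wild-type libraries go from 80.5% and 83.1% at low Ttr to 41.3% and 38.3% at high Ttr, while the knockout stays between 95.6% and 100%.

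The members carried choroid plexus markers in every library. Levels are given in CPM, UMIs scaled by the total UMIs of the members of that library and Ttr range. Sulf1, which encodes a heparan sulfatase of the extracellular surface, stood at 1007, 1072 and 711 CPM in the low range, 1316, 1337 and 1248 in the middle range and 1412, 1559 and 1887 in the high range. Car14, a membrane carbonic anhydrase, stood at 246, 255 and 153 CPM in the low range, 334, 332 and 256 in the middle range and 373, 374 and 369.6 in the high range. Clic6, a chloride channel-like protein, had 250.1, 277 and 112 CPM in the low range, 359, 356 and 233 in the middle range and 464, 489 and 381 in the high range. In cells with less than 20 Ttr UMIs per 10000, Sulf1 had 94.6, 85.3 and 92.7 CPM, Car14 49.2, 46.4 and 39.5 and Clic6 19.9, 18.1 and 10.2. Sulf1, Car14 and Clic6 were thus several times more abundant in members than in the other cells of each library. The label of the cells held on these markers, least firmly for the low range of the knockout, where 77.0% of members had at least 2 of the 5.

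Gmnc RNA was still counted in the knockout. Gmnc (chr16:26913553-26991652, minus strand, mm10) had 41.8, 38.7 and 41.1 CPM in the low range, 95.1, 87.7 and 101 in the middle range and 129.8, 183 and 315 in the high range, against 24.1, 24.4 and 23.2 CPM in the other cells. In the high range the knockout was 2.01-fold [1.81 to 2.25] above the wild-type mean, below 2-fold against wild-type library 2, and closing that range at 500 Ttr UMIs per 10000 brought the levels to 154 CPM in the pooled wild type and 225 in the knockout. The deleted part of the gene is not stated in the labels, and 3′ reads outside it are still counted, so this level does not check the genotype label. In cells thinned to 4000 UMIs, 34.8%, 38.1% and 60.3% of high-range members had a Gmnc UMI (56.4%, 69.3% and 76.3% unthinned), compared with 0%, 0.524% and 4.91% of thinned erythroid cells. Thinning left out 5 of 117, 4 of 101 and 78 of 859 high-range members and 0, 0 and 4 erythroid cells, whose median depth was 16446, 18579 and 17087 UMIs.

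Below Gmnc, the neighbouring genes Ccno and Mcidas were close to absent from knockout members, in every Ttr range. A gene was called higher or lower in a range when the side with more of it had at least 50 UMIs and 20 CPM, when it differed at least 2-fold from each wild-type library and when the counting intervals did not overlap. It was called over ranges when this held in at least 2 of the 3 and the remaining range had the same direction. By this rule 100 of 6896 genes (1.45%) were lower in knockout members and 256 (3.71%) were higher. Ccno, a cyclin-like protein required to multiply centrioles, was the gene with the lowest ratio among the multiciliation regulators. Its UMI counts were 73, 85 and 5 in the low range, 115, 93 and 0 in the middle range and 83, 73 and 4 in the high range. That made 16.5, 21.6 and 0.318 CPM in the low range, 31.9, 26.3 and 0 in the middle range and 66.9, 61.3 and 0.365 in the high range. Every wild-type value lay far above every knockout value. Ccno was 60-fold [25 to 186] lower in the low range, at least 94.5-fold lower in the middle range and 176-fold [67.3 to 653] lower in the high range. It passed the rule in the middle and high ranges, since the mean wild-type level in the low range was under 20 CPM. Mcidas had 17, 24 and 0 UMIs in the low range, 34, 26 and 0 in the middle range and 17, 15 and 0 in the high range, or 13.7, 12.6 and 0 CPM in the last. Its level stayed under the 20 CPM of the rule in every range. Set against a floor of 3 counts, Mcidas was at least 26.1-fold, at least 27.3-fold and at least 48-fold lower. Ccno was also lower in the other cells (38.1, 41.2 and 0.0623 CPM), so the difference was not particular to choroid plexus cells.

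Ccno (chr13:112987802-112990777, plus strand), Mcidas (chr13:112993845-113000394, plus strand) and Cdc20b (chr13:113035111-113091195, plus strand) lie side by side on mm10. Their promoters, 250 bases before to 50 after the RefSeq start site on GRCm38.p6 (plus strand, chr13:112987552-112987851, chr13:112993618-112993917 and chr13:113035129-113035428), are shown because 2 of these neighbours were at or near 0 in the knockout. Both strands were searched for GTTGCC, a motif bound by the RFX factors of cilia genes, and for GGCGGGA, an E2F core. Capitals mark the matches.
Ccno: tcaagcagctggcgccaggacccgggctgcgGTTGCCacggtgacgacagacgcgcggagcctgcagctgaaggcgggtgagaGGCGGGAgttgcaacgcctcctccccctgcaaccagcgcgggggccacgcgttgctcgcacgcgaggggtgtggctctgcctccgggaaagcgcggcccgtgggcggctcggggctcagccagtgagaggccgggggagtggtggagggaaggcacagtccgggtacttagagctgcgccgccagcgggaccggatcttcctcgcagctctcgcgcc
Mcidas: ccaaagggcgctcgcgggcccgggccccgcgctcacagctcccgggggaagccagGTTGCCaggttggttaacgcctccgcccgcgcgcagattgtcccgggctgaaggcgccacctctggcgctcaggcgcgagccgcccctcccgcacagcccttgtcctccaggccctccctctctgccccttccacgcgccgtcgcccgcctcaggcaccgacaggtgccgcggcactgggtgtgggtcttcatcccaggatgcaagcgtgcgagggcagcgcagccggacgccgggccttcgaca
Cdc20b: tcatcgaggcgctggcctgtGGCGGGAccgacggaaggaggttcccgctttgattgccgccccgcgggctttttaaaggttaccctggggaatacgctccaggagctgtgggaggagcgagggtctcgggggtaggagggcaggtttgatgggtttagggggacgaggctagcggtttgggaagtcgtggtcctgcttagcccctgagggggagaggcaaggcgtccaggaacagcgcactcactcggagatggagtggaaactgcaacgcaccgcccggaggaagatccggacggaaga
GTTGCC starts at −219 in Ccno and −195 in Mcidas, and GGCGGGA at −167 in Ccno and −230 in Cdc20b, counted from the start site. GTTGCC occurred in 12.51% of all 32851 promoters of the table, 13.2% of the 6895 promoters of measured genes and 15.3% of the 85 promoters (68 genes matched by symbol) of genes lower in the knockout. GGCGGGA occurred in 11.3%, 22.5% and 27.1% of them. Of the 246 promoters of genes higher in the knockout, 13.0% held GTTGCC and 14.6% GGCGGGA. A match is a string in the window, not a binding site. Cdc20b itself, which shares its locus with a cilia microRNA cluster, was too rare to compare, with 3, 2 and 0 UMIs in the high range.

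The members were also set beside the wild-type Ttr cells over the cilia limit. Wild-type Ttr cells over the cilia limit in the high range had 356 and 324 CPM of Ccno, and wild-type members of that range 66.9 and 61.3. Of 5073 genes measured in that contrast, 334 (6.58%) were higher and 74 (1.46%) lower in the wild-type cells over the limit than in the wild-type members. Of the 334, 63 belong to the cilia lists and 271 to neither these lists nor the rule. Among the 271, 8 were called lower in knockout members of the high range and 3 higher. Of all genes 2.85% and 3.96% were so called in that range, so the 8 are near the background share and only describe single genes. Shisa8, a transmembrane protein of the Shisa family, had 496 and 496 CPM in wild-type cells over the limit, and in members it had 7.90, 12.7 and 0.953 CPM in the low range, 34.1, 17.3 and 0.616 in the middle range and 54, 68.9 and 0.274 in the high range. The rare UMIs of Shisa8 in the knockout contrast with wild-type levels that are higher at higher Ttr. E2f7, an E2F factor that represses transcription, had 177 and 193 CPM over the limit and 37, 36.2 and 15.4 CPM in the low range, 53, 51.5 and 14.9 in the middle range and 83.8, 86.6 and 13.2 in the high range among members. Tmem107, a protein of the ciliary transition zone, had 237 and 236 CPM over the limit and 66.1, 61.1 and 22.3 CPM in the low range, 68.8, 70.2 and 29 in the middle range and 89.5, 84 and 31.9 in the high range. Cdkn1a, the cell cycle inhibitor p21, had 110.1 and 132 CPM over the limit and 25.5, 42.5 and 6.74 CPM in the low range, 16.6, 25.8 and 4.83 in the middle range and 41.9, 31.1 and 2.83 in the high range. For Shisa8, E2f7, Tmem107 and Cdkn1a, named after their values were seen, the knockout lay below both wild-type libraries in every range. Cdkn1a was 5.05-fold [3.96 to 6.28], 4.39-fold [3.14 to 6.22] and 12.9-fold [8.51 to 20.1] lower, and it was lower in the other cells too (log2 ratio −3.76). Cdkn1a lost its call with limits of 0 and 3 cilia UMIs and against wild-type members with the E12.5 reporter, where its log2 ratios were −0.94, −1.85 and −1.82. Those ratios rest on 18, 15 and 3 pooled wild-type UMIs. Ube2t, Ppp1r35 and Lrrc10b were also among the 8, and Ccdc114, Slc12a2 and Neat1 were those called higher.

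**Figure D2:**
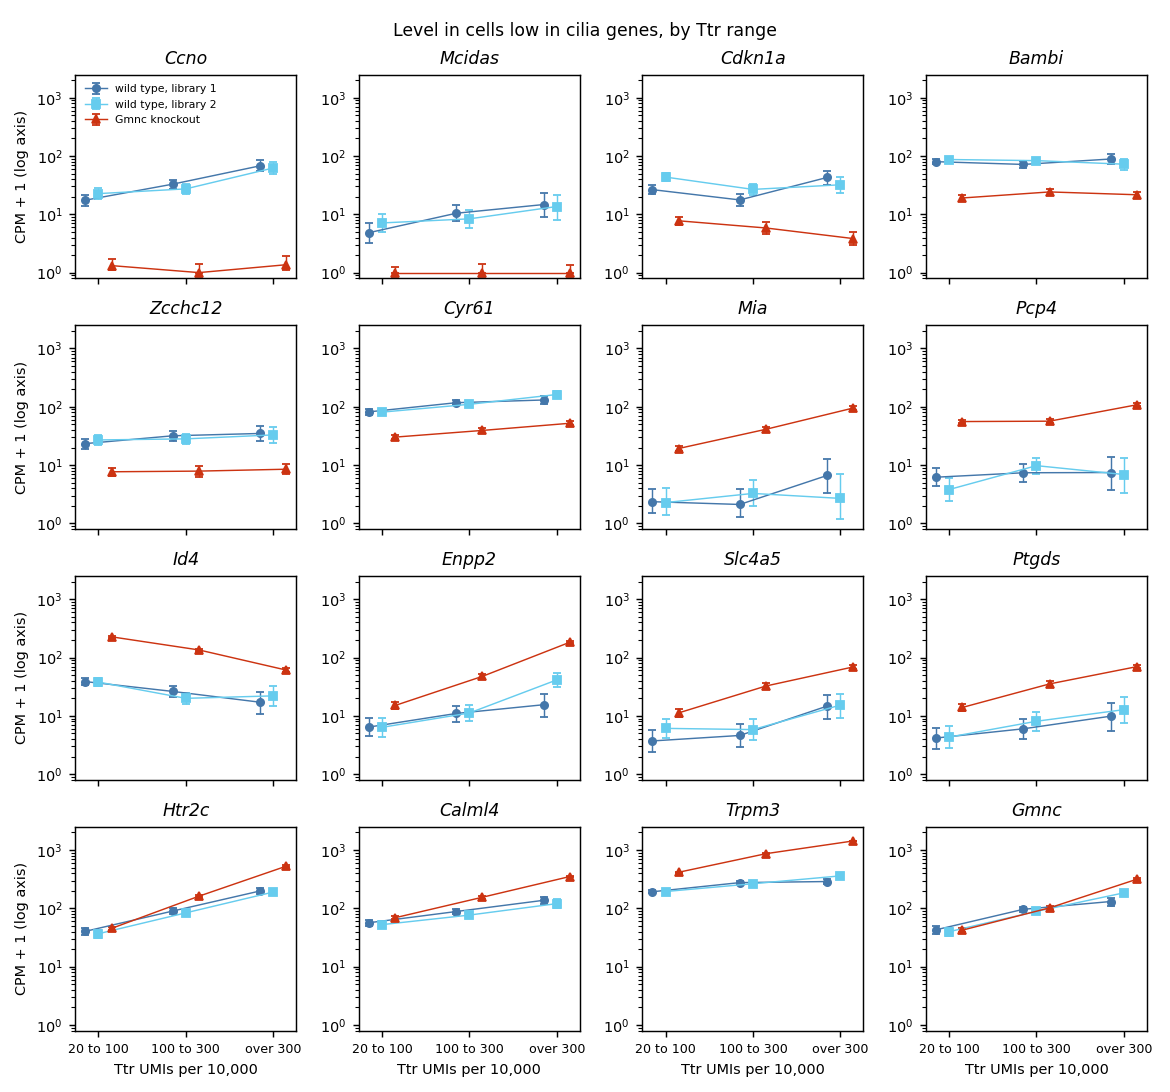
Level of 16 genes in members by Ttr range, as CPM + 1 on a log axis with 95% Poisson intervals, 1 line a library. The knockout line lies at or near 0 for Ccno (0.318, 0 and 0.365 CPM) and Mcidas, under both wild-type lines for Cdkn1a, Bambi, Zcchc12 and Cyr61, and above them for Mia and Pcp4 in every range.

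The remaining cilia genes differed less than Ccno, in cells that the rule had made low in them. Over ranges, 1.45% of all genes measured were lower and 3.71% higher. Of the list of multiciliation regulators, 7 genes without Foxj1 were measured: Ccno was lower, the E2F partner Tfdp1 was higher, and the median log2 ratio was −0.19, where all genes measured had −0.10. This median changed sign, to 0.09, 0.13 and 0.44, with a limit of 0 or 3 cilia UMIs and with wild-type members of the E12.5 reporter, settings under which Ccno had too few UMIs for a call. Tfdp1 was higher by about as much in the other cells (log2 ratio 3.42). Ccno is the lowest value of the list, so the bound used for its count of 0 does not move the median. Of 68 motile axoneme genes, 17 had enough UMIs over ranges, none of them was called and the median was −0.35, or 0.03 with a limit of 0 cilia UMIs. With no limit on cilia UMIs the median log2 fold of motile axoneme genes was −1.97. By range the axoneme median was −0.64, −0.35 and −0.11. The list of deuterosome and centriole amplification genes had 8 measured members, none called, and a median of −0.33. Intraflagellar transport and primary cilium genes had 19 measured members and a median of −0.15, with 1 lower, Arl6, a small GTPase of the ciliary BBSome pathway. Arl6 stood at 55.3, 53.2 and 25.8 CPM in the low range, 63.5, 63.1 and 30.3 in the middle range and 71.7, 68.1 and 27.5 in the high range. Foxj1, one of the rule's own genes, had 57.1, 63.4 and 23.5 CPM in the low range, 95.1, 86.3 and 41 in the middle range and 161, 163 and 77.6 in the high range. The members that passed the count filter are those with enough RNA in some library, so these counts describe the abundant part of each list.

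Genes of the choroid plexus's own functions were present in the knockout, and those that differed were higher, at middle and high Ttr. Secreted and carrier proteins and genes of transport and fluid secretion had, as 1 list, 27 measured members over ranges: 0 were lower, 3 were higher, among them Enpp2 and Slc4a5, and the median log2 ratio was 0.04, or −0.02 with the high range closed at 500. In the low range none of 22 was called (median −0.37), in the middle range 4 of 28 were higher (median 0.00) and in the high range 8 of 30 were higher (median 0.43). Called higher over all genes were 3.93%, 4.0% and 3.96% in the low, middle and high ranges, and called lower 1.73%, 1.69% and 2.85%. Enpp2 (chr15:54838901-54952892, minus strand), the secreted lysophospholipase autotaxin, had 5.42, 5.35 and 14 CPM in the low range, 9.99, 10.2 and 46.6 in the middle range and 14.5, 40.3 and 182 in the high range. The knockout was 2.61-fold [1.89 to 3.68], 4.62-fold [3.60 to 6.01] and 6.64-fold [5.25 to 8.71] higher. The wild-type libraries differed from each other in the high range, and both stayed under the knockout. Slc4a5 (chr6:83219828-83304945, plus strand), a sodium bicarbonate cotransporter of the epithelium, had 2.71, 5.09 and 10.2 CPM in the low range, 3.61, 4.81 and 31.5 in the middle range and 13.7, 14.3 and 68.1 in the high range, and was 7.49-fold [5.15 to 11.3] and 4.87-fold [3.45 to 7.09] higher in the middle and high ranges. Enpp2 and Slc4a5 kept their call in 22 of 22 alternative settings.

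Other genes of the mature epithelium differed mostly at middle and high Ttr, or not beyond the limit. Htr2c, the serotonin receptor that marks the tissue, had 39.3, 35.7 and 44.2 CPM in the low range, 88.8, 82.6 and 160.4 in the middle range and 198, 189 and 528 in the high range. It was called only in the high range, at 2.73-fold [2.49 to 3.01] higher. In thinned cells of that range a Htr2c UMI was found in 36.6%, 50.5% and 76.8% of members (69.2%, 71.3% and 84.4% unthinned) and in 0%, 0% and 1.05% of erythroid cells. Calml4, a calmodulin-like protein, had 55.5, 51.4 and 67.9 CPM in the low range, 87.1, 75.6 and 154 in the middle range and 136, 119 and 350.1 in the high range, and was likewise called in the high range. Slc12a2, the sodium-potassium-chloride cotransporter, had 71.7, 72.3 and 149 CPM there and was 2.06-fold [1.76 to 2.42] higher. Kcne2, a potassium channel subunit, had 27.8, 18.8 and 17.7 CPM in the low range, 91.8, 62.8 and 78.5 in the middle range and 255, 236 and 320.3 in the high range and was not called in any range. Trpm3, a cation channel whose intron hosts a microRNA of the epithelium, had 191, 193 and 414 CPM in the low range, 275, 263 and 865 in the middle range and 287, 359 and 1432 in the high range. It was 2.16-fold [2.04 to 2.28], 3.22-fold [3.06 to 3.38] and 4.43-fold [4.14 to 4.78] higher, and in the other cells it was higher too (log2 ratio 1.59). Ptgds, prostaglandin D synthase of the cerebrospinal fluid, had 3.16, 3.31 and 12.9 CPM in the low range, 4.99, 7.07 and 34.3 in the middle range and 8.87, 11.8 and 68.9 in the high range, and was called higher in the middle and high ranges. Clic6 was 2.35-fold [2.20 to 2.50] lower in the low range and was not called in the others.

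The high range reached further in the knockout, and differences there were smaller once its upper end was matched. Closing that range at 500 left 93, 78 and 309 members with a median Ttr of 377, 370.0 and 400.3 per 10000. There the choroid plexus function list had a median log2 ratio of 0.20 with 4 of 27 measured members higher, and Htr2c 1.09, Slc12a2 0.84 and Kcne2 0.03. Enpp2 had 26.9 CPM in the pooled wild type and 119 in the knockout under that limit. Removing marked doublets and asking for at least 3 of the 5 other markers left 232, 239 and 113 members by range in wild-type library 1, 213, 216 and 100 in wild-type library 2 and 339, 325 and 759 in the knockout. The list's medians were then −0.13, 0.14 and 0.52, with 9 of 31 higher in the high range.

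Stage could be held closer by taking only wild-type members that carried the tdTomato reporter of the E12.5 embryos and no YFP. Among wild-type members 463 and 401 (68.1% and 68.2%) had only the E11.5 reporter, 74 and 58 (10.9% and 9.86%) only the E12.5 reporter, 22 and 26 both and 121 and 103 neither. The E12.5 set held 39, 25 and 10 members by range in library 1 and 29, 21 and 8 in library 2. Against it, the choroid plexus function list had medians of −0.37, 0.19 and 0.98, where all genes had −0.01, 0.13 and 0.44. Pooled E12.5 wild-type members had 4.73, 9.22 and 33.5 CPM of Enpp2 in the low, middle and high ranges. These levels lay below those of the knockout in each range. Ccno had 7.10, 26.3 and 52.7 CPM in the same cells, above the knockout in each range. With 18 cells in the high range, these values rest on few cells of Wnt3aCre descent.

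Mia and Pcp4 had the highest ratios among genes named for a difference beyond that of the other cells, with haemoglobin genes left out. Genes were named when they were called over ranges and lay at least 1 (log2) beyond the same gene's ratio in the other cells; 39 of 228 eligible higher genes (17.1%) and 5 of 95 eligible lower genes (5.26%) met this. Mia (chr7:27179742-27181157, minus strand), a secreted protein known from cartilage and melanoma, had 1.35, 1.27 and 18.2 CPM in the low range, 1.11, 2.26 and 40.1 in the middle range and 5.64, 1.68 and 94.4 in the high range. It was 13.9-fold [7.63 to 28.1], 23.8-fold [13.5 to 46.6] and 25.8-fold [13.4 to 55.9] higher. Pcp4 (chr16:96467606-96525793, plus strand), a calmodulin-binding peptide, had 5.19, 2.80 and 54.8 CPM in the low range, 6.38, 8.77 and 55.6 in the middle range and 6.45, 5.88 and 107 in the high range, a ratio of 13.7-fold [9.56 to 19.6], 7.34-fold [5.55 to 9.92] and 17.4-fold [10.5 to 31.2]. For both genes the knockout lay above both wild-type libraries in each range, and the call held in 22 of 22 alternative settings. Among the 12 highest were also Mt1, Cadps, Gria2, Rhcg, Sp8, Id4, Fabp7, Cnr1 and Slc4a5. Gria2, an AMPA receptor subunit, Cadps, a factor of vesicle release, Cnr1, the cannabinoid receptor, Sp8, a patterning transcription factor, Rhcg, an ammonium transporter, and Mt1, a metallothionein, lost their call when doublets were removed and 3 of 5 markers asked for, which left fewer cells. Their mean log2 ratios went from 2.86 to 1.93 for Gria2, 2.87 to 1.96 for Cadps, 2.19 to 1.09 for Cnr1, 2.42 to 1.61 for Sp8, 2.59 to 2.44 for Rhcg and 3.24 to 2.96 for Mt1. Fabp7, a lipid-binding protein of radial glia, kept its call and had 60.3, 71 and 369 CPM in the low range, 26.4, 38.2 and 252 in the middle range and 29.8, 35.3 and 75.8 in the high range.

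Bmp pathway genes were among those lower in knockout members. Of 12 measured genes for Bmp ligands, antagonists and targets, 3 were lower (Nog, Bambi and Smad6), 1 was higher (Id4), and the median log2 ratio was −0.56 against −0.10 for all genes. Of all genes measured in members, 1.45% were lower and 3.71% higher over ranges. The same 12 genes had a median of −0.62 in the other cells. Of the 9 genes of the list with enough UMIs there, 0 were called lower and 0 higher. Of all genes measured there, 75 of 6539 (1.15%) were called lower and 206 (3.15%) higher. Bambi, a decoy receptor that Bmp signalling itself induces, had 79, 86.1 and 18.1 CPM in the low range, 70.7, 82.3 and 23.2 in the middle range and 87.9, 71.4 and 20.6 in the high range. Bambi was 4.57-fold [3.97 to 5.25], 3.30-fold [2.82 to 3.87] and 3.86-fold [3.18 to 4.71] lower, and the knockout lay below both wild-type libraries in each range and under 22 of 22 alternative settings. Nog, the secreted antagonist Noggin, had 49.4, 46.1 and 20.5 CPM in the low range, 48.5, 51.8 and 20.8 in the middle range and 51.6, 49.6 and 26.3 in the high range. Smad6, an inhibitory Smad, had 18.5, 25 and 8.26 CPM in the low range, 21.9, 21.8 and 9.14 in the middle range and 24.2, 18.5 and 18.6 in the high range. Nog lost its call with doublets removed, in thinned cells and against wild-type members with the E12.5 reporter, where its log2 ratios were −1.06, −0.34 and −0.15. Those ratios rest on 58, 20 and 6 pooled wild-type UMIs. Smad6 kept its call in 15 of 22 settings and lost it without either wild-type library and against the E12.5 set. Its log2 ratios against that set were −1.15, −0.93 and 0.86, on 24, 14 and 2 pooled wild-type UMIs. Id4, an inhibitor of basic helix-loop-helix factors, had 37.7, 36.9 and 226 CPM in the low range, 25.2, 19 and 134 in the middle range and 16.1, 21 and 59.9 in the high range, and was 6.05-fold [5.39 to 6.81], 6.07-fold [5.13 to 7.19] and 3.23-fold [2.39 to 4.48] higher. The direction of the list's median was thus the same in the other cells and not particular to members, though no gene of the list was called there.

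The 5 named genes that were lower in members beyond the other cells were Zcchc12, Cyr61, Ooep, Spry1 and Eva1b. Zcchc12 (chrX:36195904-36199158, plus strand), a zinc finger coactivator that binds Smads, had 22.3, 26 and 6.67 CPM in the low range, 30.8, 27.2 and 6.88 in the middle range and 33.9, 31.9 and 7.49 in the high range. It was 3.62-fold [2.83 to 4.61], 4.21-fold [3.19 to 5.64] and 4.39-fold [3.19 to 6.05] lower. Cyr61 (chr3:145646976-145649981, minus strand), a matricellular protein and target of Yap, had 80.8, 80 and 29.2 CPM in the low range, 117, 109 and 38.3 in the middle range and 129.8, 161 and 51.2 in the high range. It was 2.75-fold [2.44 to 3.11], 2.95-fold [2.60 to 3.34] and 2.85-fold [2.48 to 3.25] lower, and every wild-type value was above every knockout value. Ooep (chr9:78376109-78378725, minus strand), first described in oocytes, had 270.4, 244 and 100.2 CPM in the low range, 360.3, 342 and 149 in the middle range and 353, 374 and 152 in the high range. Spry1 (chr3:37639947-37644598, plus strand), a feedback inhibitor of Fgf receptor signalling, had 108, 102 and 50.7 CPM in the low range, 147, 139 and 63.2 in the middle range and 123, 148 and 47.5 in the high range. Eva1b had 17.2, 20.9 and 8.52 CPM in the low range, 30, 31.1 and 9.86 in the middle range and 46.8, 41.2 and 20.6 in the high range. Zcchc12 kept its call in 20 and Cyr61 in 21 of 22 alternative settings, Eva1b in 12, and Ooep and Spry1 lost theirs with doublets removed and 3 of 5 markers asked for, though over all settings their mean log2 ratios stayed between −1.42 and −1.001 and between −1.34 and −0.93.

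Genes of the G2 and M phase list were lower in knockout members at middle and high Ttr. All 24 genes of the G2 and M phase list were measured: 7 were lower over ranges (Cdk1, Ccnb1, Ccnb2, Ccna2, Aurka, Aurkb and Cenpa), 0 were higher and the median log2 ratio was −0.83. By range 0, 7 and 10 of 24 were lower, with medians of −0.51, −0.81 and −1.15. Of all genes measured, 1.45% were lower over ranges and 1.73%, 1.69% and 2.85% by range, and their median over ranges was −0.10. In the other cells the list's median was −0.26 and 0 of its genes were lower. Cdk1, the kinase of mitotic entry, had 253, 298 and 132 CPM in the low range, 318, 359 and 127 in the middle range and 336, 435 and 102 in the high range. Ccnb1, its cyclin partner, had 227, 273 and 137 CPM in the low range, 259, 291 and 122 in the middle range and 224, 297 and 85.6 in the high range. Aurkb, a kinase of chromosome segregation, had 77.2, 92.2 and 48.8 CPM in the low range, 80.7, 98.8 and 39.5 in the middle range and 87.9, 95 and 24.7 in the high range. The wild-type levels of Cdk1, Ccnb1 and Aurkb were about level or higher toward high Ttr, and those of the knockout were lowest in the high range. Medians were −0.66, −0.93 and −1.05 against wild-type members with the E12.5 reporter, −0.56, −0.80 and −1.16 with doublets removed and 3 of 5 markers asked for, and −1.09 in the range closed at 500. Detection of the proliferation genes Top2a and Mki67 did not follow this at lower Ttr: in thinned cells a Top2a UMI was found in 48.4%, 48.9% and 60.6% of low-range, 47.5%, 53.2% and 52.8% of middle-range and 46.4%, 48.5% and 33.8% of high-range members (64.1%, 61.8% and 69.6%, 57.4%, 63.6% and 66.3%, and 53%, 59.4% and 42.8% unthinned). A Mki67 UMI was found in 38.8%, 35.4% and 40.6% of thinned low-range members and 27.7%, 40.2% and 26.1% of high-range ones. Erythroid precursors divide too, with a Top2a UMI in 35.5%, 29.8% and 37.5% of thinned erythroid cells. Thinning left out 22.8% of the knockout's low-range members and at most 9.08% of any other group. Single calls were less steady: Aurkb kept its call in 15 and Ccna2 in 19 of 22 alternatives. Both lost it against wild-type members with the E12.5 reporter. There the log2 ratios by range were −1.14, −1.26 and −1.79 for Aurkb and −0.95, −1.37 and −1.46 for Ccna2. With all wild-type members they were −0.78, −1.16 and −1.85 for Aurkb and −0.86, −1.12 and −1.66 for Ccna2. The E12.5 ratios rest on 134, 73 and 20 pooled wild-type UMIs of Aurkb and 257, 170 and 33 of Ccna2. S phase genes had 21 measured members, of which Pcna was higher, none was lower over ranges and 5 were lower in the high range, among them Ccne1, the cyclin of the G1 to S transition, with 53.2, 44.5 and 8.68 CPM there. The S phase median was −0.48 in members and −0.50 in the other cells. Several of these genes were also lower in wild-type cells over the cilia limit than in wild-type members. Outside the cilia lists, 73 genes were lower in cells over the limit. Of these, 21 were also lower in knockout members of the high range, where 2.85% of all 6919 measured genes were. They included Aurkb, Ccna2, Rrm2, Birc5, Ube2c and Cdca2. Both contrasts used the same wild-type members of the high range, so a gene high in those cells comes out lower in both. The overlap is thus partly built in and only describes single genes.

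Other lists held few calls. Wnt and hem signalling genes had 14 measured members and no call over ranges (median −0.11), junction and polarity genes 12 and no call (−0.21), and genes of cell cycle exit 10 and no call (−0.20). Transcription factors of the choroid plexus and roof plate had 12 with 1 higher, Sox9 (median 0.04). In the Notch pathway 2 of 9 were higher, Hes1 and Mfng (median 0.64). In the list of late timing genes 3 of 7, the nuclear factor I genes Nfia, Nfib and Nfix, were higher (median 0.86), and the other cells had the same median to within 0.01 (0.85). Early timing genes had 5 measured members, none called (−0.13). Cholesterol synthesis genes had 2 of 14 higher, Fdps among them (0.23), and hypoxia and glycolysis genes 3 of 13, Pgk1, Aldoc and Hk2 (0.44). Of the p53 targets and cell death genes, 1 of 7 was lower, Cdkn1a (−0.27). Extracellular matrix genes had 1 of 8 higher, Ptgds (−0.01), and dissociation stress genes 1 of 9 higher, Jun (−0.19). These medians stand beside −0.10 for all genes, and the counts beside 3.71% of all genes higher and 1.45% lower over ranges. Mfng is also on the list of intermediate progenitor markers.

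**Figure D3:**
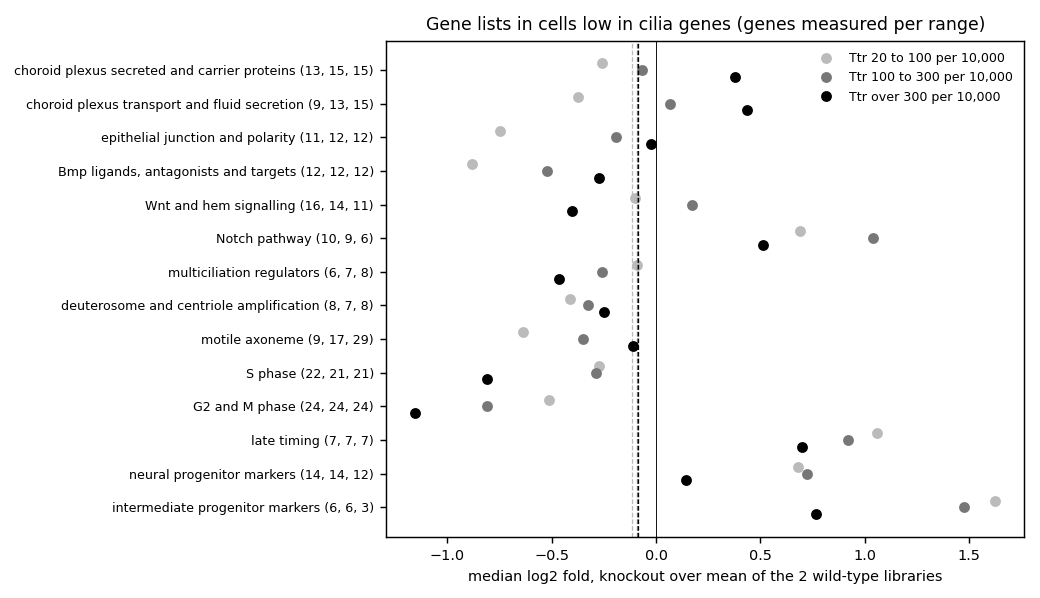
Median log2 ratio of knockout to wild-type members for selected gene lists, 1 point a Ttr range, with dashed lines at the medians of all genes measured. From low to high Ttr, the G2 and M phase list lies at −0.51, −0.81 and −1.15. The choroid plexus secreted and carrier list lies at −0.26, −0.07 and 0.38, and the transport and fluid secretion list at −0.38, 0.07 and 0.43.

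Some large differences were shared with all other cells. Pgk1, a glycolytic enzyme, had 16.9, 9.68 and 495 CPM in low-range members, and its log2 ratio in the other cells was 4.68. Pcna, the replication clamp, had 52.1, 47.1 and 166 CPM in the same range and 1.54 (log2) in the other cells. The deposited feature sets differed between the genotypes (28001 and 32285 features), and a difference in read assignment, stage and genotype cannot be told apart for these genes.

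RNA typical of other cell types was unequal between the libraries. The summed CPM of 9 erythroid markers was 249.6, 245 and 10962 in the low range, 269, 239 and 12674 in the middle range and 301, 279 and 7271 in the high range, with Alas2 at 0 in wild-type library 1 at high Ttr. In the other cells the same sum was 18653, 20173 and 16736. All 7 measured markers were higher over ranges, at a median log2 ratio of 5.36, where 3.71% of all genes measured were higher. Intermediate progenitor markers summed to 226, 196 and 596 CPM in the low range and 98.3, 83.2 and 155 in the high range, and 5 of 6 were higher over ranges (Eomes, Neurog2, Mfng, Gadd45g and Elavl4). Neuron markers summed to 337, 242 and 706 CPM in the low range and 206, 108 and 199.8 in the high range, and 4 of 6 were higher (Dcx, Stmn2, Elavl3 and Nhlh2). Neural progenitor markers summed to 2930, 2967 and 3554 CPM in the low range and 2181, 2204 and 1604 in the high range, and 4 of 14 were higher (among them Lhx2, Fabp7 and Nr2f1; median 0.55). The excess of neuronal and intermediate progenitor markers in the knockout was thus largest at low Ttr and smaller at high Ttr. With doublets removed and 3 of 5 markers asked for, the neural progenitor median was −0.66 in the high range. Mesenchyme markers summed to 202, 105 and 165 CPM in the low range and endothelium markers to 54.8, 45.3 and 47.7, and none of the 8 microglia and macrophage markers had enough UMIs to be measured. The part of these cell types in the differences of single genes was not tested.

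**Figure D4:**
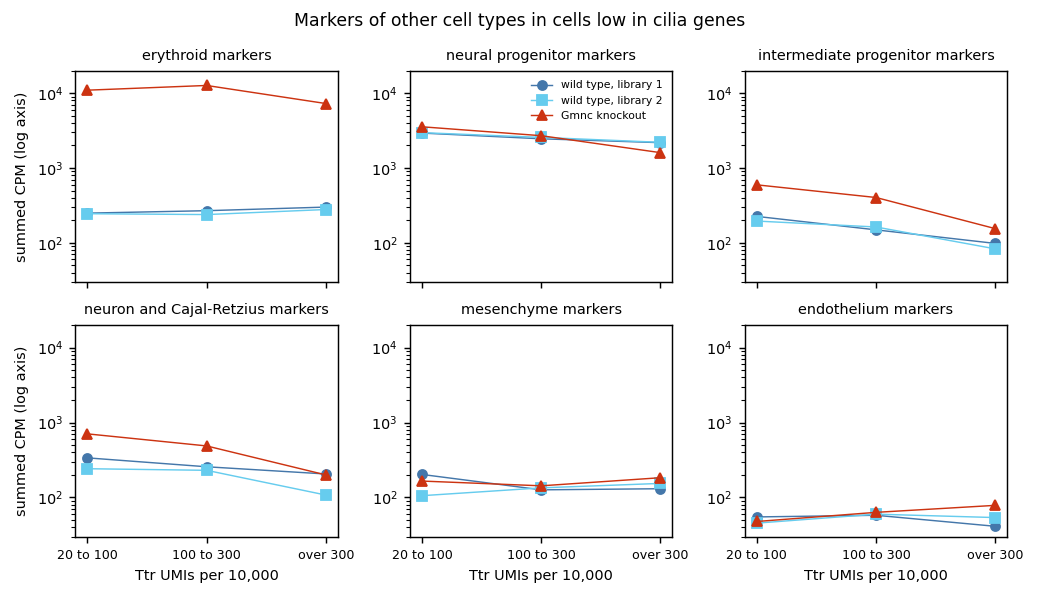
Summed CPM of markers of other cell types in members, by Ttr range and library, on a log axis. Erythroid markers stand at 239 to 301 CPM in the wild type and at 7271 to 12674 in the knockout, and intermediate progenitor and neuron markers are highest in the knockout at low Ttr.

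Members also varied among themselves along Ttr, in the same way in each library for many genes. Between the high and the low range, 67 of 5643 genes (1.19%) were higher and 83 (1.47%) lower in wild-type library 1, 58 (1.03%) and 107 (1.91%) of 5613 in wild-type library 2, and 419 (6.04%) and 346 (4.99%) of 6932 in the knockout, whose cell numbers were larger. In all 3 libraries 30 genes were higher and 35 lower. The choroid plexus function list had a median log2 ratio of 0.83, 0.77 and 1.65, with 9 of 21, 10 of 21 and 22 of 30 measured members higher, where all genes had −0.11, −0.10 and −0.03. A gene was measured in a library when the range with more of it had at least 50 UMIs and 20 CPM. Rare genes thus entered only through the range where they were higher, and each list's medians are over different genes in each library. Without that filter the function list's ratios were smaller in each library, as given below. Kcne2 had log2 ratios of 3.15, 3.58 and 4.11 and Htr2c 2.30, 2.37 and 3.55. Kcnj13, the inward rectifier potassium channel of the apical membrane, had 1.37, 1.90 and 2.57, and Car2, the cytosolic carbonic anhydrase, 2.17, 2.23 and 2.34. Motile axoneme genes went the same way even among these cilia-low cells: the median was 1.43, 1.29 and 1.92, and 12 of 15, 6 of 10 and 21 of 23 measured members were higher. Cfap126, a regulator of ciliary basal body position, had 2.65, 1.97 and 3.05, Pifo, a protein of cilium disassembly, 2.07, 1.78 and 2.79, and Nme5, a radial spoke protein, 2.17, 1.42 and 2.07. Gmnc itself had 1.61, 2.21 and 2.91. In each library, then, the median measured axoneme gene was higher at high than at low Ttr.

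Progenitor genes went the other way along Ttr. Neural progenitor markers had a median log2 ratio of −0.72, −0.83 and −1.75 from the low to the high range, Notch pathway genes −0.67, −0.90 and −1.51, and Wnt and hem signalling genes −0.62, −0.84 and −0.73. Hes5, a Notch effector, had −3.35, −2.61 and −2.49, and Neurog2, a proneural factor, −2.80, −1.65 and −2.29. Rspo1 and Rspo3, secreted enhancers of Wnt signalling, were among the 10 genes lowest at high Ttr in all libraries. The G2 and M phase list had −0.01, 0.23 and −0.48, and the S phase list had −0.40, −0.48 and −0.96. Whether these ratios differ between genotypes could not be tested with 1 suspension each, and the high range held higher Ttr in the knockout.

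**Figure D5:**
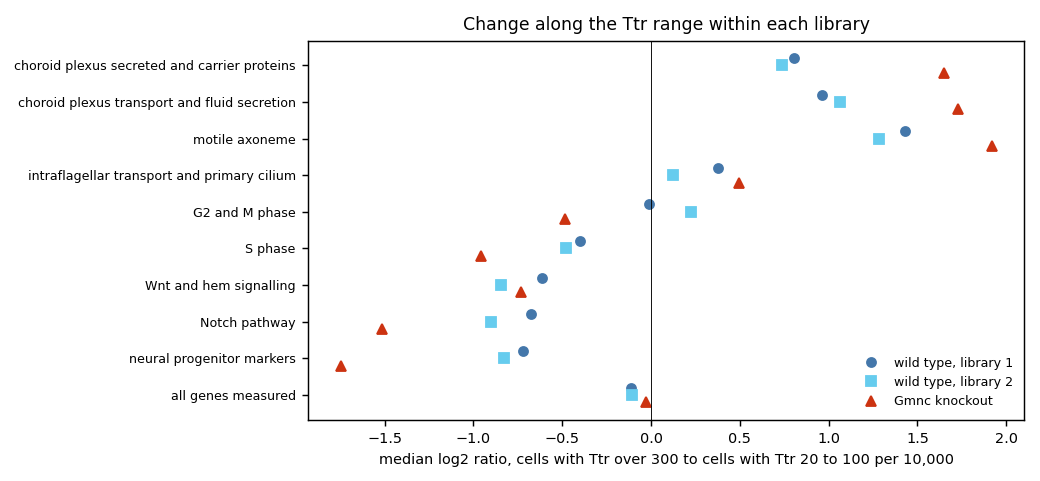
Median log2 ratio of selected gene lists between members with Ttr over 300 and with 20 to 100 UMIs per 10000, 1 point a library. In all 3 libraries the choroid plexus secreted and carrier list (0.81, 0.73 and 1.65) and the transport and fluid secretion list (0.96, 1.06 and 1.73) lie above 0. The motile axoneme list (1.43, 1.29 and 1.92) also lies above 0, and neural progenitor markers (−0.72, −0.83 and −1.75) lie below 0.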

How the data were processed

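Single-cell 3′ RNA was measured in 3 libraries of the dorsal telencephalic midline. Each deposited matrix holds the authors' raw UMI count of every gene in every barcode, on mm10. The submitters' processing notes name Cell Ranger 3.1.0, and per the file headers version 3.1.0 wrote the wild-type matrices and version 6.0.0 the knockout matrix. Features were matched by Ensembl ID, which kept 27040 of them with 99.8%, 99.8% and 99.2% of the 148073906, 139978761 and 259403297 UMIs.

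The count of UMIs was summed over the members of each library and Ttr range and divided by their total (CPM). Intervals at 95% were exact Poisson for levels, Clopper-Pearson for shares and, for ratios, binomial given the sum of both counts. Log2 ratios set the knockout against the averaged wild-type libraries, each with 1 CPM added, and the median of a list was taken over measured genes, first averaged over ranges. A side with 0 UMIs was set to a floor of 3 counts over the library's members. Doublets were scored from simulated doublets (30 principal components, 20 neighbours), and the top 0.8% per 1000 barcodes were marked (9.94%, 8.32% and 16.2% of cells) but kept, except in alternatives. Named genes were called over ranges, at least 1 (log2) beyond the other cells, and among the 12 highest or lowest. Mitochondrial, ribosomal, haemoglobin and predicted genes were left out, as were Xist, Tsix, Ddx3y, Eif2s3y, Kdm5d and Uty. Other X-linked genes could be named. Gmnc, the markers, up to 6 genes of each list and the 10 steepest along Ttr were added. Genes of the contrast with cells over the cilia limit that were also called in knockout members were named after their values were seen. Members, lists and rules were chosen with earlier results of these data known. On simulated counts the rule called 50 of 50 genes changed 3-fold, 0 of 50 changed 1.5-fold and 0 of 6190 unchanged. These were Poisson counts around the wild-type mean, and only genes well above the 20 CPM of the rule were changed. The simulation held no variation between suspensions, stages or cells, so it gives no rate of false calls for these data. Alternatives covered the cilia limit, doublets, reporters, scaling (edgeR 4.0.16 TMM, median-ratio size factors), pseudocount, filter, thinning, ranges and each wild-type library. Gene positions are those of the GRCm38 annotation. Python 3.11.15, numpy 2.4.6, scipy 1.17.1, pandas 2.3.3, scikit-learn 1.9.0 and R 4.3.3 were used. The values of some list members are not reported here.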

Additional observations from a re-analysis of the deposited data

Results flagged for a closer look

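Cdk1, the kinase of mitotic entry, went in opposite directions along Ttr in the 2 genotypes. Its log2 ratio of members with Ttr over 300 to members with 20 to 100 UMIs per 10000 was 0.41 and 0.55 in the wild-type libraries and −0.37 in the knockout library. Each wild-type library moved one way and the single knockout library the other, and the difference was not tested.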

How the results depend on the processing

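Of 168 values recomputed for the main results under other settings, 101 stayed within their limits and 67 moved, and the 3 list medians below changed sign in some settings. Genes lower in the knockout numbered 273 with no limit on cilia UMIs, 30 against wild-type cells with the E12.5 reporter and 155 with no count filter, compared with 100. With the E12.5 reporter 4963 genes were measured, compared with 6896, as few wild-type UMIs were left to reach the filter. Genes higher numbered 471 with at least 20 UMIs and 5 CPM and 522 with no filter, compared with 256. The median log2 fold of choroid plexus function lists (0.04) was 0.13 with doublets removed, 0.10 and 0.024 with the E12.5 and E11.5 reporters, 0.14 with totals without Ttr, mitochondrial, ribosomal and haemoglobin genes, 0.12 with TMM, 0.10 with median-ratio factors, 0.088 with no filter and 0.13 with no Ttr ranges. The median log2 fold of multiciliation regulators (−0.19) was 0.093 and 0.13 with limits of 0 and 3 cilia UMIs, −0.39 with no limit, 0.44 with the E12.5 reporter, −0.48 with 20 UMIs and 5 CPM and −0.61 with no filter. The median log2 fold of motile axoneme genes (−0.35) was 0.027 and −0.19 with limits of 0 and 3, −0.24 with 5 cilia UMIs per 10000, −1.97 with no limit, −0.24 with doublets removed, −0.56 and −0.23 with the E12.5 and E11.5 reporters and −0.010 with no Ttr ranges.

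The ratio of choroid plexus function genes along Ttr (0.83, 0.77 and 1.65) was 0.31, 0.64 and 1.72 with a limit of 0, 0.79, 0.83 and 1.60 with 3, 0.67, 0.67 and 1.47 with doublets removed, 0.62, 0.54 and 1.55 in thinned cells and 0.72, 0.49 and 1.12 with no filter. In wild-type library 1 and the knockout it was 0.88 and 1.74 with 5 cilia UMIs per 10000, 0.97 and 1.75 with no limit, 0.77 and 1.73 as a mean of cells and 0.61 and 1.40 with 20 UMIs and 5 CPM, and in the knockout 1.61 with a pseudocount of 5 CPM. The share of Ttr cells low in cilia genes was 25.5%, 24.5% and 53% with a limit of 0, 52.9%, 51.9% and 91.6% with 3, 69.8% and 56.3% in the wild type with the E12.5 reporter, 99.3% in the knockout with 5 per 10000, and 85.0%, 82.6% and 100% in thinned cells. A stricter limit counts fewer cells by construction; the other causes were not tested.

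Without either wild-type library, lower genes numbered 114 to 130 and higher genes 289 to 301, and the median log2 fold of choroid plexus function lists was 0.040 to 0.066, with medians of −0.28 to −0.09 for regulators and −0.41 to −0.27 for the axoneme. Of 3 alternatives added after seeing the data, the high range closed at 500 gave −0.024 for choroid plexus function, and doublets removed with at least 3 of 5 markers gave 0.17 there and −0.19 for the axoneme. Members with a barcode of another library, when left out, moved none of the 5 results recomputed without them. No paired analysis was possible because the knockout has 1 library and the wild-type numbers only name repeats of 1 suspension. Depth limits rare genes such as Cdc20b, and Mcidas stayed under the level asked for.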

Other observations

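Beyond cilia and transport genes, the steepest genes along Ttr included surface proteins of other contexts. Chodl, a membrane lectin known from cartilage and motor neurons, had log2 ratios of 1.75, 2.19 and 2.56 between members with Ttr over 300 and with 20 to 100 UMIs per 10000 (libraries 1 and 2 of the wild type, then the knockout). Cntn1, an axonal adhesion protein, had 1.73, 2.27 and 3.39. Among the genes lowest at high Ttr, Bcl11a, a transcription factor of the forebrain, had −1.67, −1.50 and −1.91. Socs2, a feedback inhibitor of cytokine receptors, had −1.58, −1.86 and −2.17. All 4 went the same way in each library, and Chodl and Cntn1 were not called between the genotypes, whereas Bcl11a and Socs2 were higher in knockout members over ranges.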
